A study of Mus musculus with 4 samples.

Results

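Adipocyte nuclei of inguinal white adipose tissue (iWAT) from mice given CL for 3 days were compared with those of untreated mice. Nuclei that the deposited annotation calls Adipocyte or Beige were summed for each mouse, which gave 1546 nuclei from 3 mice of the group day3CL and 637 nuclei from 3 mice of day0RT. These 2183 nuclei are part of the 9083 nuclei of the 6 mice, of the 7004 adipocyte nuclei of all 21 mice and of the 32552 nuclei of the series. All mice were 8-week-old C57BL/6J males kept at room temperature (22 °C) for 14 days beforehand. The day0RT mice were taken before any intervention, and the day3CL mice received CL-316,243 (CL), an agonist selective for the β3-adrenergic receptor, at 1 mg/kg for 3 days at room temperature. The series also holds 3 mice for each of days 1 and 7 of CL and days 1, 3 and 7 of cold at 6.5 °C, and no vehicle-injected group is described in the sources used here, so injection and agonist cannot be told apart.

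The β3-adrenergic receptor is carried by fat cells, where it raises cyclic AMP through adenylyl cyclases and starts the breakdown of stored triglyceride. Repeated stimulation of iWAT is known to switch on the synthesis of new fatty acids beside their release and combustion, and to bring out beige adipocytes, which burn fuel through uncoupling protein 1. Single-nucleus ATAC-seq reads which stretches of DNA are open to the transposase Tn5, so the values below are chromatin accessibility and not RNA.

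Each entry of the deposited matrix is 1 where a nucleus had reads in a peak and 0 where it had none. The accessibility of a gene was the sum of these entries over the peaks on its body and the 2000 bases upstream, in CPM, counts scaled to a common library total with TMM factors, and edgeR's quasi-likelihood method was applied with the mice as replicates. A gene or peak was called where the Benjamini-Hochberg adjusted p was below 0.05, and differences are on the log2 scale, day3CL minus day0RT. CPM are not per length, so levels are not compared between genes. One library stood apart: in day3CL mouse 2 adipocytes made up 75.1% of the nuclei and lymphocytes 14.1%, against 10.9% to 24.0% and 65.9% to 75.8% in the other 5 mice. Adipocyte counts ranged from 358239 to 3734498 per mouse. The median counts per adipocyte nucleus were 1770.5, 1330.5 and 2697 in day0RT and 1681, 3026 and 4103 in day3CL. No nucleus barcode was shared between the 6 mice.

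Of 14429 genes tested, 444 rose and 244 fell in day3CL adipocytes, which is 3.08% and 1.69% of all genes. An unadjusted p below 0.05 was reached by 2714 genes, and the median difference over all genes was -0.01. Of the 688 called genes, 622 had values in the 3 day3CL mice that did not overlap those of day0RT, against 3175 (22.0%) of all tested genes. Without day3CL mouse 2, 157 genes rose and 80 fell, of which 151 and 73 were among those called with it. With nuclei of at least 1000 counts thinned to 1000, an alternative chosen after the data were seen, 35 of 8925 genes rose and 25 fell. Of these, 30 and 19 were among those called at full depth. Nuclei of fewer counts were left out. In day0RT these were 51 of 196, 60 of 156 and 44 of 285. In day3CL they were 49 of 205, 94 of 933 and 18 of 408. The part of these omissions in the lost calls was not tested.

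De novo lipogenesis, the making of fatty acids from citrate and acetate, held the most calls of the 17 gene lists. Of its 31 tested genes 14 rose and 0 fell, against 3.08% and 1.69% of all genes. The median difference was 0.45 against -0.01 over all genes, and 26 of the 31 differences were positive. *Acly*, ATP citrate lyase, which splits cytosolic citrate into acetyl-CoA, had 98.6, 82.5 and 96.1 CPM in the day0RT mice and 363, 301 and 186 CPM in the day3CL mice. The lowest day3CL mouse lay above the highest day0RT mouse, and the gene rose by 1.51 (standard error, SE, 0.18, adjusted p = 1.3e-08). *Acaca*, acetyl-CoA carboxylase 1, which makes the malonyl-CoA that fatty acids are built from, had 386, 366 and 376 CPM in day0RT and 813, 925 and 638 CPM in day3CL. Again the groups did not overlap, and *Acaca* rose by 1.07 (SE 0.12, adjusted p = 5.5e-10). *Acss2*, which makes acetyl-CoA from acetate, went from 129, 108 and 132 CPM to 246, 313 and 232 CPM, a rise of 1.09 (SE 0.16, adjusted p = 9.5e-07). Of the 16 peaks on *Acss2*, 9 also count for a neighbouring gene, so part of its value cannot be assigned.

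Of the peaks past the naming filters, the 2 with the largest rises lay in or beside *Acly* (chr11:100476353-100528000, minus strand, mm10). The peak at chr11:100504918-100506339, which overlaps an exon 22.4 kb from the gene start, held 2.28, 3.81 and 8.78 CPM of the peak counts in day0RT and 127, 88.5 and 46.0 CPM in day3CL, a rise of 3.65 (SE 0.33, adjusted p = 6.1e-23). The other peak, at chr11:100475010-100475536 just beyond the 3′ end of the gene, went from 2.28, 3.81 and 1.25 CPM to 50.1, 43.8 and 21.5 CPM, a rise of 4.10 (SE 0.51, adjusted p = 3.6e-11). In both, each day3CL mouse was above each day0RT mouse, and in both mouse 3 was the lowest of the treated mice. Their day0RT values rest on very few counts and lie near the floor, so the sizes of these rises are loosely fixed. The mean over the 6 mice was 61.5 counts for the exonic peak and 29 for the other, reached mostly through the treated mice. With thinned nuclei the exonic peak rose by 4.01 and the other was not tested. The peak beyond the 3′ end has *Klhl11* as its nearest gene start and is in the sum of no gene. Whether it acts on *Acly* or on *Klhl11* was not tested. Of the 6 peaks that count for *Acly*, which do not include it, 5 rose, against 2.21% of all tested peaks. Only some of these 5 could be tested with only the 2 groups. Stretches of 240 bases of the 2 peaks of largest rise are shown. With them is the upstream peak of *Samm50*, which lies on chromosome 15 and is taken up with the peaks. All are on the plus strand of mm10, and capitals mark matches to the motifs searched: TTGGCA (NFI half-site), CACGTG (E-box), TGANTCA (AP-1) and ACANNNTGT (NR3C), on either strand.

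Acly exonic peak, chr11:100505033-100505272: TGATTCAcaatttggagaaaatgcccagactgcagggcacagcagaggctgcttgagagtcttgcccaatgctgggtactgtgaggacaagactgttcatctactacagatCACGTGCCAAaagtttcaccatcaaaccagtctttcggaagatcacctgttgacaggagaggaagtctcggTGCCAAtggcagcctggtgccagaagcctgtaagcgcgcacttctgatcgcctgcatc
Acly downstream peak, chr11:100475153-100475392: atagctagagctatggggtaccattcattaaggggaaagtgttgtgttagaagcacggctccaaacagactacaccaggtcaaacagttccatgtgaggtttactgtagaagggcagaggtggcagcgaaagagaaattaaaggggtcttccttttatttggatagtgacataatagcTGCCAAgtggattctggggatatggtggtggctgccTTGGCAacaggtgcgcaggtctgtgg
Samm50 upstream peak, chr15:84190251-84190490: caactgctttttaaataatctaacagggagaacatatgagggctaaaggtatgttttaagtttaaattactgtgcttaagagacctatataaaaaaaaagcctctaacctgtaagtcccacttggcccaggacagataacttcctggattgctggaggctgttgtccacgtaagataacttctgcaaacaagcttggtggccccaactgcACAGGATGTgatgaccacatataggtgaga

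The E-box and an NFI half-site in the exonic peak of *Acly* share letters, and a match is a description of the letters, not a bound site.

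The later steps of the pathway rose as well. *Fasn*, fatty acid synthase, which assembles palmitate, had 129, 108 and 123 CPM in day0RT and 206, 249 and 183 CPM in day3CL, a rise of 0.83 (SE 0.16, adjusted p = 0.00028). *Elovl6*, which lengthens palmitate to stearate, went from 259, 143 and 179 CPM to 479, 369 and 289 CPM and rose by 0.87 (SE 0.15). *Scd1*, the desaturase that makes oleate, had 195, 240 and 281 CPM in day0RT and 410, 493 and 333 CPM in day3CL, a rise of 0.77 (SE 0.14). None of these 3 overlapped between the groups, although *Elovl6* in day0RT mouse 1 came near the lowest treated mouse. The other desaturases *Scd2* (1.12) and *Scd3* (1.29) also rose. These are close paralogs of *Scd1*, and the authors removed read pairs of low mapping quality, so reads alike between them may be missing. *Me1*, malic enzyme, which yields NADPH, rose by 0.75, and *Tkt*, transketolase of the pentose phosphate path, by 0.91. *Acacb* (0.45), *Acss1* (0.77), *Pnpla3* (0.63) and *Acsl5* (0.66) complete the 14.

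The calls of *Acly*, *Acaca*, *Acss2*, *Tkt*, *Elovl6*, *Scd1*, *Scd2*, *Me1* and *Fasn* held when each of the 6 mice was left out in turn, and those of *Scd3*, *Acss1*, *Acsl5*, *Pnpla3* and *Acacb* were lost without at least 1 mouse, with differences then of 0.34 to 1.35. Without day3CL mouse 2, 10 of the 31 rose, among them *Acly* (1.37) and *Acaca* (0.91). With nuclei thinned to 1000 counts 7 of 28 rose, and DESeq2 called 9. The filter of DESeq2 gave no adjusted p to 8672 of the 14429 genes. A gene that it did not call, here or below, may therefore have had no adjusted p. Over white adipocyte nuclei alone, without the Beige cluster, 14 lipogenic genes rose, in a fit where 2.8% of all genes did, with *Acly* at 1.56 and *Acaca* at 1.16.

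The gain at *Acaca* (chr11:84129672-84401651, plus strand) lay in the gene body. Of its 33 tested peaks, 18 rose and 0 fell, with a median difference of 2.13. Most of the 18 could not be tested with only the 2 groups and passed the count filter through the other groups. Those of the 18 that could be tested rose by 2.16 to 2.91 in that fit. The part of the count filter in the 18 and in the median was not tested. The peaks within 2000 bases of the gene start alone gave -0.51 (adjusted p = 0.39), and of these the peak over the start, which also covers the start of *Tada2a*, had 31.9, 41.9 and 37.6 CPM in day0RT and 23.9, 22.5 and 25.2 CPM in day3CL (adjusted p = 0.14). At *Scd1* 5 of 8 tested peaks rose, at *Tkt* 4 of 10, at *Me1* 5 of 16, at *Elovl6* 2 of 17 and at *Fasn* 1 of 4, where 2.21% of all tested peaks rose. None of the called *Me1* peaks and only some of the called *Tkt* peaks could be tested with only the 2 groups. All these peaks are parts of the gene sums above, so their counts are not separate support.

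The genes of the pathway's best known regulators did not pass the test. *Srebf1*, whose product SREBP-1 drives lipogenic genes, had 318, 348 and 286 CPM in day0RT and 354, 315 and 305 CPM in day3CL (difference 0.04, SE 0.10, adjusted p = 0.89). *Mlxipl*, which encodes the carbohydrate-sensing factor ChREBP, had 222, 237 and 203 CPM against 325, 211 and 196 CPM (0.06, SE 0.12, adjusted p = 0.84). In both genes the groups overlapped, and only day3CL mouse 1 lay above all of day0RT. A peak in *Tom1l2*, at chr11:60240328-60241800, has *Srebf1* as its nearest gene start and is in neither sum. It had 22.8, 19.1 and 20.1 CPM in day0RT and 71.6, 54.9 and 47.9 CPM in day3CL. That rise of 1.38 (SE 0.25, adjusted p = 4.0e-05) was also called by DESeq2 (adjusted p = 0.034). The peak was chosen after its values were seen, and whether it acts on *Srebf1* was not tested.

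**Figure D1:**
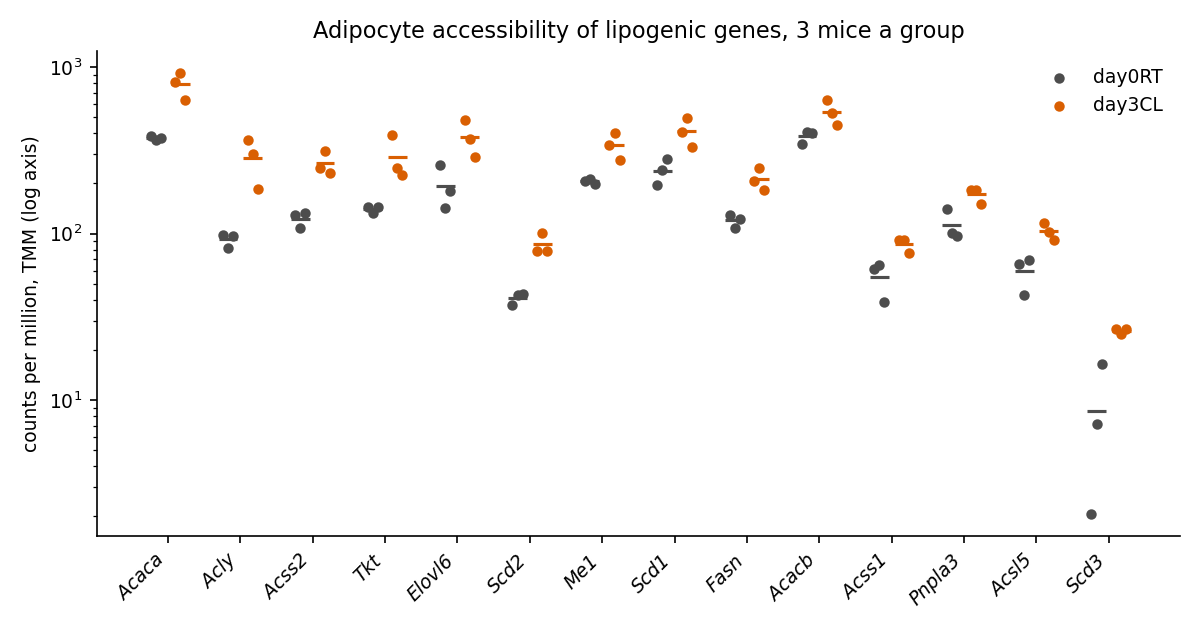
Accessibility (CPM, log axis) of the 14 called lipogenic genes in each of the 3 day0RT and 3 day3CL mice, 1 point per mouse. For each of the 14 genes all day3CL points lie above all day0RT points, with *Acaca* going from 366 to 386 CPM in day0RT to 638 to 925 CPM in day3CL.

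Of the pyruvate dehydrogenase and TCA cycle genes, which make the citrate that lipogenesis uses, 4 of 30 rose and 1 fell (median 0.16). Over all genes 3.08% rose and 1.69% fell. *Cs*, citrate synthase, had 152, 140 and 161 CPM in day0RT and 202, 239 and 208 CPM in day3CL, a rise of 0.52 (SE 0.12, adjusted p = 0.0043). *Ogdh*, of the oxoglutarate dehydrogenase complex, went from 16.4, 17.9 and 9.4 CPM to 26.9, 32.3 and 27.2 CPM (1.20, SE 0.30). *Suclg1*, of succinyl-CoA ligase, also rose (0.54), and *Idh2*, mitochondrial isocitrate dehydrogenase, fell by 0.47. The groups did not overlap in *Cs*, *Ogdh*, *Suclg1* and *Idh2*, but none of these 3 rises stood without day3CL mouse 2 (differences 0.42 to 1.06), nor did the fall of *Idh2* (-0.38). Of the glycolysis and glucose uptake genes 1 of 25 rose, *Pkm*, pyruvate kinase (0.59, SE 0.15), which was not called without day0RT mouse 2 (0.51).

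**Figure D2:**
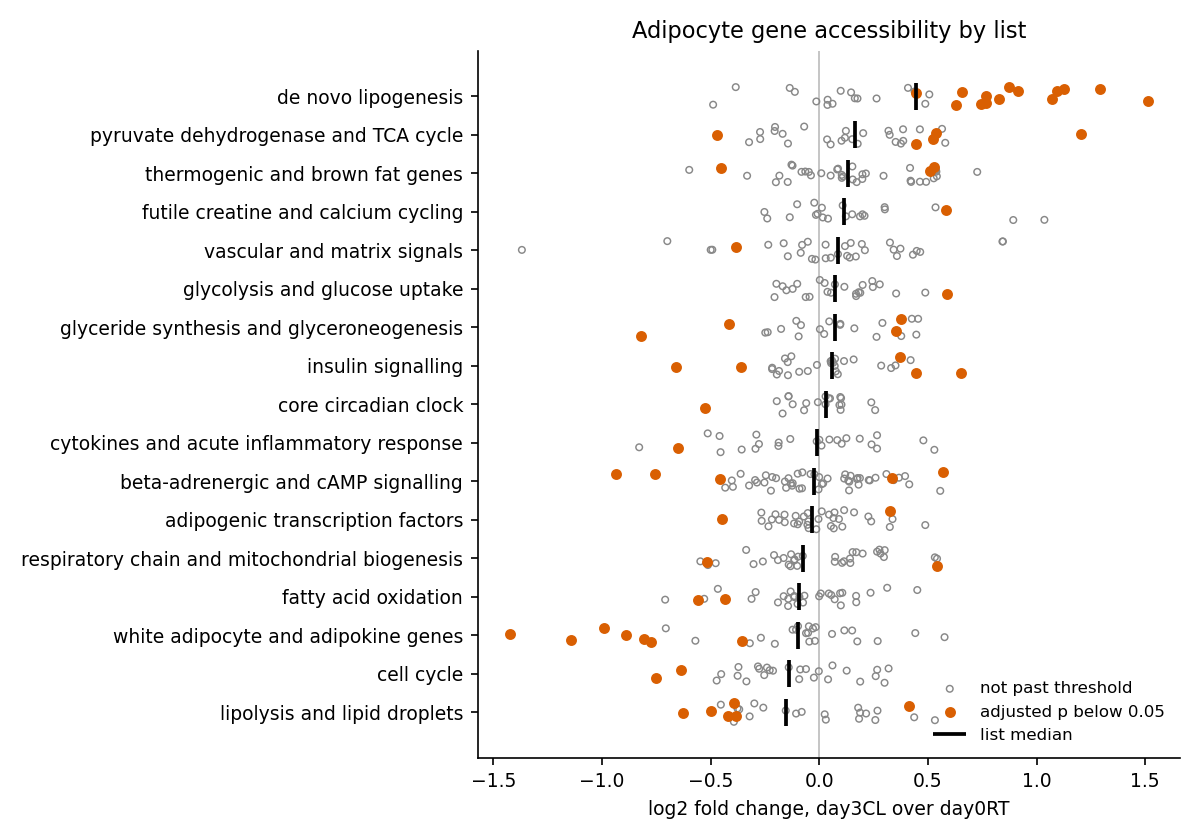
Differences (log2, day3CL minus day0RT) of the tested members of the 17 gene lists, 1 point per gene, filled orange where called, with the list median as a black line. The lipogenesis list has its median at 0.45 with 14 filled points, and the lipolysis and lipid droplet list has its median at -0.15.

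Of the thermogenic and brown fat genes 2 of 38 rose and 1 fell, against 3.08% and 1.69% of all genes, with a median of 0.13. *Ucp1*, the uncoupling protein, had 8.2, 3.6 and 9.4 CPM in day0RT and 13.4, 8.5 and 9.1 CPM in day3CL, so the groups overlapped (difference 0.20, SE 0.47, adjusted p = 0.87). At this SE only a large change at *Ucp1* could have been called, and of its 2 peaks 1 was tested, so the result says little on this gene. *Kcnk3*, a potassium channel of brown fat, went from 169, 143 and 145 CPM to 260, 211 and 212 CPM, a rise of 0.53 (SE 0.13, adjusted p = 0.0048). *Acot11*, a thioesterase induced by cold in brown fat, rose by 0.51, and *Adcy3*, an adenylyl cyclase, fell by 0.45. Each of these calls was lost without at least 1 mouse, with differences then of 0.41 to 0.65 for the rises and -0.47 to -0.39 for *Adcy3*. *Cidea*, a lipid droplet protein that marks brown and beige fat, had 39.0, 53.8 and 52.7 CPM against 78.4, 78.5 and 57.3 CPM, without overlap, and did not pass (0.54, adjusted p = 0.078). *Dio2* (0.42), which activates thyroid hormone, *Ppargc1a* (0.15), which drives mitochondrial biogenesis, and *Prdm16* (-0.20), a fate factor of brown fat, did not pass either. Over white nuclei alone 5 of 34 tested thermogenic genes rose, against 2.8% of all genes in that fit, namely *Otop1* (1.11), *Cidea* (0.65), *Acot11* (0.64), *Kcnk3* (0.62) and *Pank1* (0.56). With thinned nuclei 0 of 24 were called, and DESeq2 called 1.

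Most called genes of the lipolysis and lipid droplet list and of the white adipocyte and adipokine list fell. Of 27 tested lipolysis and lipid droplet genes 1 rose and 5 fell (median -0.15), against 3.08% and 1.69% of all genes. Of the 27 differences 11 were positive. *Cavin1*, a caveola protein whose loss causes lipodystrophy, had 316, 283 and 238 CPM in day0RT and 175, 168 and 188 CPM in day3CL, a fall of 0.63 on the log2 scale (SE 0.14, adjusted p = 0.002). *Plin4*, a droplet coat protein, went from 594, 642 and 507 CPM to 392, 454 and 357 CPM (-0.50, SE 0.11). *Cidec* (-0.42), which fuses droplets, *Plin1* (-0.38), which guards the droplet against lipase, and *Pnpla2* (-0.39), the first lipase of triglyceride breakdown, fell as well, and *Plin3* rose (0.41). The groups did not overlap in these genes except *Plin3*, where day0RT mouse 2 (194 CPM) lay above day3CL mouse 3 (183 CPM). Each of the 6 calls was lost without at least 1 mouse, with *Cavin1* at -0.52 without day0RT mouse 1 and *Plin4* at -0.40 without day3CL mouse 3. Leaving out single mice gave 1 to 6 fallen genes in the list, with 1 left without day0RT mouse 1 and 2 without day3CL mouse 2. The fallen genes also came down to 1 of 27 with depth per nucleus as a covariate, 1 of 27 in nuclei of at least 2000 counts, 1 of 23 with thinned nuclei and 2 with DESeq2.

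Of the white adipocyte and adipokine genes 7 of 29 fell and 0 rose (median -0.10), against 1.69% and 3.08% of all genes. When each mouse was left out in turn, 6 or 7 fell. DESeq2 called 3 of them lower, and 3 of 25 fell with thinned nuclei. *Lrp3*, a member of the LDL receptor family, had 162, 133 and 137 CPM in day0RT and 53.7, 60.7 and 74.9 CPM in day3CL, so the highest treated mouse lay well under the lowest untreated one (-1.14, SE 0.15, adjusted p = 3.4e-07). *Adipoq*, which encodes the hormone adiponectin, went from 265, 204 and 204 CPM to 119, 128 and 139 CPM, with no overlap (-0.77, SE 0.13, adjusted p = 4.8e-05). *Nnat*, neuronatin, had 76.0, 82.5 and 68.0 CPM against 29.1, 25.2 and 29.5 CPM (-1.42, SE 0.21). Both peaks of *Nnat* also count for *Blcap*, in which it lies, and *Blcap* fell by 1.01, so the pair cannot be told apart. *Slc7a10* (-0.89), a serine transporter that marks white fat cells, *Cfd* (-0.99), the adipokine adipsin, *Angptl4* (-0.81), which inhibits lipoprotein lipase, and *Vegfa* (-0.36), the vascular growth factor, make up the 7. The calls of *Lrp3*, *Adipoq*, *Nnat*, *Slc7a10*, *Cfd* and *Blcap* held without each single mouse.

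Within *Adipoq* 2 of 6 peaks fell, both in introns, where 1.25% of all tested peaks fell. The one at chr16:23149037-23149346 had 47.9, 34.3 and 40.1 CPM in day0RT and 7.16, 11.4 and 20.2 CPM in day3CL, a fall of 1.54 on the log2 scale (SE 0.28, adjusted p = 3.8e-05). The peak over the gene start had 66.2, 45.7 and 56.4 CPM against 52.5, 35.5 and 36.2 CPM and did not pass (-0.62, adjusted p = 0.053). *Pck1*, the glyceroneogenic enzyme that makes the glycerol backbone of triglyceride in fat cells, had 216, 230 and 196 CPM in day0RT and 121, 120 and 115 CPM in day3CL. The 2 groups stood far apart and *Pck1* fell by 0.82 (SE 0.16, adjusted p = 0.00022), although not with thinned nuclei (-0.62, adjusted p = 0.21). All 3 of its tested peaks fell, against 1.25% of all tested peaks. The peak at chr2:173159302-173160727, just past its 3′ end, went from 146, 118 and 123 CPM to 28.6, 51.5 and 51.5 CPM (-1.39, SE 0.16, adjusted p = 1.4e-13). Stretches of both peaks are shown as the regions that closed most at these 2 genes. The motifs in capitals are AGGTCAAAG (PPAR-RXR), TCCCNNGGG (EBF) and TTGGCA (NFI half-site), and in the *Pck1* peak the EBF letters match on both strands, so its 2 matches overlap.

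Pck1 downstream peak, chr2:173159348-173159587: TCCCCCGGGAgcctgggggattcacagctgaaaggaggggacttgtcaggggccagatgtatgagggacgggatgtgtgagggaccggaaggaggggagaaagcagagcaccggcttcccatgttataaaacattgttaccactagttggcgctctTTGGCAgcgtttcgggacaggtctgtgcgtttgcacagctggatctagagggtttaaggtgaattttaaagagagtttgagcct
Adipoq intronic peak, chr16:23149072-23149311: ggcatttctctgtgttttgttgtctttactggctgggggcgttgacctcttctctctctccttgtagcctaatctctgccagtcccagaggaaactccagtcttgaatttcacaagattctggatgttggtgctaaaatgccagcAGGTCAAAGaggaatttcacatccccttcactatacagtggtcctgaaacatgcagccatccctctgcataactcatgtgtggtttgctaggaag

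Of the glyceride synthesis and glyceroneogenesis genes, *Pck1* among them, 2 of 22 fell and 2 rose (median 0.07), against 1.69% and 3.08% of all genes. The enzymes of the last step of triglyceride synthesis went opposite ways, *Dgat2* rising by 0.38 and *Dgat1* falling by 0.42, and *Lpin1*, a phosphatidate phosphatase, rose by 0.35. Without day3CL mouse 2 none of the 3 was called (0.30, -0.45 and 0.23).

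In the β-adrenergic and cyclic AMP list 2 of 53 genes rose and 3 fell (median -0.02), against 3.08% and 1.69% of all genes. *Adcy5* (chr16:35154877-35305738), an adenylyl cyclase, had 460, 556 and 552 CPM in day0RT and 258, 263 and 294 CPM in day3CL. The treated mice all lay near each other and far below the untreated ones, a fall of 0.93 on the log2 scale (SE 0.11, adjusted p = 1.3e-08). Of its 20 tested peaks 9 fell and 0 rose, against 1.25% and 2.21% of all tested peaks. *Adcy9*, another adenylyl cyclase, moved the other way, from 148, 165 and 186 CPM to 273, 258 and 233 CPM (0.57, SE 0.12, adjusted p = 0.0016). *Rapgef3* (-0.76), which encodes the cyclic AMP sensor Epac1, and *Akap1* (-0.46), which anchors protein kinase A to mitochondria, fell, and *Grk5* (0.33), a receptor kinase, rose. The calls of *Adcy5* and *Adcy9* held without each single mouse, and those of the other 3 did not hold without day3CL mouse 2 (-0.70, -0.39 and 0.25).

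**Figure D3:**
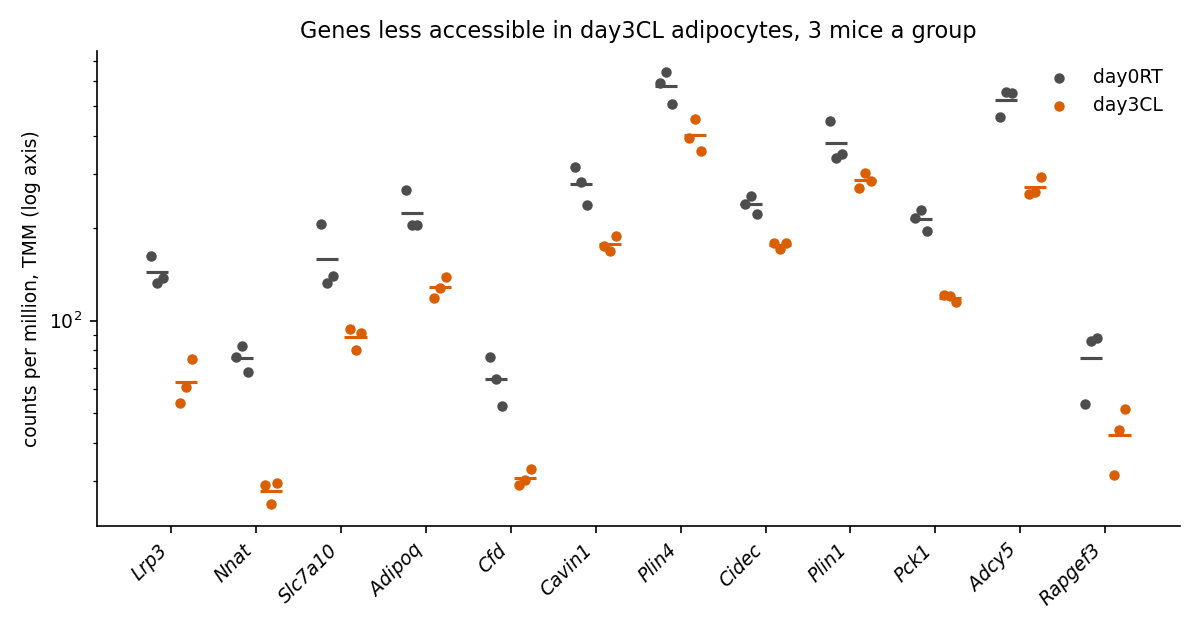
Accessibility (CPM, log axis) of 12 called genes that fell, in each of the 3 day0RT and 3 day3CL mice, 1 point per mouse. All day3CL points lie below all day0RT points, with *Adcy5* at 460 to 556 CPM in day0RT and 258 to 294 CPM in day3CL.

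Insulin signalling genes gave 3 rises and 2 falls among 30 tested (median 0.06), where 3.08% of all genes rose and 1.69% fell. *Irs2*, the insulin receptor substrate, had 189, 172 and 148 CPM in day0RT and 132, 99.8 and 102 CPM in day3CL (-0.66, SE 0.13, adjusted p = 0.0006), without overlap. *Rptor*, the Raptor subunit of mTORC1, rose by 0.65 with 131, 140 and 156 CPM against 240, 243 and 204 CPM, a gain that its promoter peaks alone did not show (-0.04). *Tbc1d4* (0.45) and *Mtor* (0.37) rose and *Akt2* (-0.36) fell, and these 3 were lost without day3CL mouse 2 (0.38, 0.31 and -0.33).

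Fatty acid oxidation genes gave 0 rises and 2 falls among 31 (median -0.09), *Acadl* (-0.43) and *Acads* (-0.56), both acyl-CoA dehydrogenases. The shares over all genes, 3.08% higher and 1.69% lower, stand beside this and the next lists. Respiratory chain and mitochondrial biogenesis genes gave 1 rise and 1 fall among 35 (median -0.08), the rise being *Tfb2m* (0.54), a mitochondrial transcription factor, all 3 of whose peaks also count for another gene. Adipogenic transcription factors gave 1 rise and 1 fall among 36 (median -0.03): *Pparg* (0.33), the master factor of fat cells, and *Cebpa* (-0.45), its partner. Each of the calls of *Acadl*, *Acads*, *Tfb2m*, *Pparg* and *Cebpa* was lost without at least 1 mouse. *Pparg* had values of 0.24 to 0.35 in the 5 omissions that ended its call, and *Cebpa* was lost in all 6 (-0.55 to -0.41). Among futile creatine and calcium cycling genes 1 of 22 rose (median 0.12), *Itpr1*, a calcium channel of the endoplasmic reticulum (0.58, SE 0.10).

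The remaining lists held few calls, where 3.08% of all genes rose and 1.69% fell. Cytokines and acute inflammatory response genes had 1 fall among 25 (*Irf1*, -0.65, median -0.01), cell cycle genes 2 falls among 27 (*Myc*, -0.75, and *Cdk1*, -0.64, median -0.14), vascular and matrix genes 1 fall among 33 (*Lama4*, -0.38, median 0.09) and core clock genes 1 fall among 20 (*Clock*, -0.53, median 0.03). Each was lost without at least 1 mouse, *Myc* only without day0RT mouse 1, whose 177 CPM was the highest of the 6 (-0.52).

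By size alone, the genes that rose most were mostly of low counts. *Ehf*, an epithelial transcription factor, had 8.2, 3.6 and 3.5 CPM in day0RT and 22.4, 21 and 27.2 CPM in day3CL (2.22, SE 0.43, adjusted p = 0.00033). *Hpgds*, which makes prostaglandin D, went from 12.3, 14.3 and 7.0 CPM to 35.8, 30.9 and 31.8 CPM (1.67, SE 0.32). In both genes all treated mice lay above all untreated mice. Others among the 12 largest rises were *Akr1d1* (1.8), *Safb* (1.78), *Map3k15* (1.64), *Rp1* (1.63), *Tom1* (1.59), *Spock3* (1.52), *Acly* (1.51), *Zbtb11* (1.48) and *Odr4* (1.48), with errors (SE) of 0.18 to 0.43. Without day0RT mouse 3, *Ehf*, *Safb*, *Hpgds*, *Map3k15*, *Tom1* and *Spock3* were no longer called (1.26 to 1.81), nor was *Tom1* without day3CL mouse 2 (1.54).

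The 12 largest falls were led by *Ifi27l2a*, an interferon-induced gene, with 57.5, 39.4 and 36.3 CPM in day0RT and 13.4, 14.2 and 17.0 CPM in day3CL (-1.51, SE 0.25, adjusted p = 3.5e-05). *Ccl11*, the chemokine eotaxin, fell from 67.8, 43.0 and 57.4 CPM to 31.3, 28.4 and 22.1 CPM (-1.13, SE 0.20). *Nnat*, *Lrp3*, *Blcap* and *Cfd* were also among the 12, with *Guca2b* (-1.02), *Gas2l2* (-1.01), *Syde1* (-0.99), *Chrna5* (-0.97), *Gpx8* (-0.97) and *Gap43* (-0.95). Without day0RT mouse 3 the calls of *Guca2b*, *Gas2l2*, *Syde1*, *Chrna5* and *Gpx8* were lost (-1.09 to -0.80), and without day3CL mouse 2 those of *Guca2b*, *Gas2l2*, *Syde1* and *Chrna5* (-1.13 to -0.73).

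Of 47835 tested peaks 1056 rose and 598 fell, 2.21% and 1.25% of all peaks. The count filter ran over all 21 mice, so a peak near 0 in day0RT could be tested through the treated groups. With only the 2 groups, 516 of the 1056 rising peaks and 521 of the 598 falling peaks were tested. The part of this filter in the numbers, sizes, places and motif letters of called peaks was not tested. Without day3CL mouse 2, 288 rose and 127 fell, and DESeq2 called 9 and 7, all of them among the edgeR calls, with 35241 peaks given no adjusted p by its own filter. With nuclei thinned to 1000 counts 18 of 7098 tested peaks rose and 3 fell. The 1056 rising peaks lay mostly away from promoters: 5.02% were within 2000 bases of a gene start, against 23.6% of all tested peaks and 26.4% of the falling peaks. The intronic share was 41.8% in rising, 29.4% in falling and 34.2% in all peaks, and the intergenic share 39.1%, 33.9% and 30.5%. The median distance to the nearest gene start was 32.6 kb for rising peaks, 17.4 kb for falling peaks and 18.5 kb for all. The median of a called difference was 1.64 for rises and -0.91 for falls, with a median of 17.3 counts per library in rising and 26.8 in falling peaks.

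**Figure D4:**
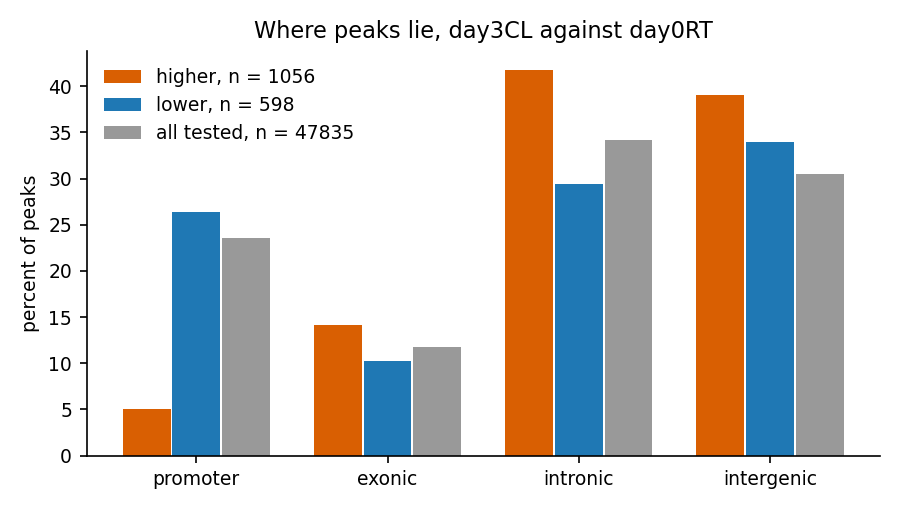
Percent of peaks in promoters (within 2000 bases of a gene start), exons, introns and between genes, for the 1056 peaks that rose, the 598 that fell and all 47835 tested peaks. The promoter bar is 5.02% for rising peaks against 26.4% for falling and 23.6% for all peaks.

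Apart from the peaks in and just beyond *Acly* shown above, the larger rises by rule included chr13:23298446-23299614 (3.48) and chr13:21233735-21234700 (3.24). They also included a *Gpr107* intron at chr2:31204066-31205024 (2.70) and an intronic peak of *Acly* at chr11:100486199-100486527 (2.62). The *Samm50* upstream peak, at chr15:84189606-84191135 and chosen after its values were seen, had 18.3, 41.9 and 30.1 CPM in day0RT and 90.7, 102 and 73.6 CPM in day3CL, with no overlap (1.65, SE 0.21, adjusted p = 5.6e-11). It was one of few called rises in a promoter window. The largest fall was in *March8*, at chr6:116407454-116408908, with 50.2, 45.7 and 56.4 CPM in day0RT and 7.16, 13.7 and 18.4 CPM in day3CL (-1.83, SE 0.25, adjusted p = 4.1e-09). Several of the 10 largest falls lay near genes named above: a peak 46.4 kb upstream of *Nnat* at chr2:157513036-157514367 (-1.66), one in a *Med16* exon 6.36 kb from the start of *Cfd* at chr10:79896340-79898078 (-1.50), and the *Ifi27l2a* promoter at chr12:103443288-103444150 (-1.52). The *Cfd* neighbour had 116, 118 and 108 CPM in day0RT and 26.3, 32.8 and 53.4 CPM in day3CL, all treated mice far below all untreated ones.

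Consensus motifs were counted in windows of 300 bases at the peak centres, on both strands, with the letters given here or beside the sequences above. CTAAAAATA (MEF2) was in 18 of the 1056 rising windows (1.70%), in 0 of the 598 falling windows, and in 0.738% of all. TGACGTCA (CREB) was in 0 rising windows, in 8 falling windows (1.34%) and in 0.792% of all. TCACCCCA (SREBP core), added after the data were seen together with the E-box, was in 2.65% of rising, 1.34% of falling and 1.70% of all windows. The NFI half-site was in 29.6%, 21.7% and 25.9%, and NR3C in 12%, 11.9% and 9.31%. AAAGGTCA (NR4A) was in 3.41%, 2.68% and 2.81%, TCAAGGTCA (ESRR) in 0.379%, 0.334% and 0.523%, and AGGTCAAAG (PPAR-RXR) in 0.758%, 0.669% and 0.711%, and these 3 share letters. The E-box was in 5.78%, 6.19% and 6.43%, EBF in 9.47%, 11.2% and 8.71%, AP-1 in 9.38%, 8.70% and 9.45%, GGGACTTTC (NF-kB) in 0.379%, 0.334% and 0.360%, and TTGCGCAA (CEBP) in 0%, 0% and 0.242%. The windows differed in GC content, 47.3% in rising, 54.5% in falling and 52.2% in all, whose part in these shares was not tested.

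Against the other nuclei of the same mice, which are mostly lymphocytes, the lipogenic rise was tested by an interaction. In the other nuclei edgeR called 0 of 14474 genes in either direction (0% higher and 0% lower), with 1337 at an unadjusted p below 0.05, and none of 30 tested lipogenic genes passed. The difference between adipocytes and other nuclei was itself called for 14 genes higher and 4 lower of 15527 (0.0902% and 0.0258%), among them *Acly* (1.40, SE 0.30), *Acss2* (1.26, SE 0.25) and *Acaca* (1.14, SE 0.20). *Scd1*, *Scd2*, *Scd3*, *Elovl6* and *Pnpla3* were not among them, so a difference from the other nuclei is not shown for the whole lipogenic list. Summed adipocyte markers in the other nuclei were 387 to 449 CPM in day0RT and 396 to 763 CPM in day3CL, and the 2 sums of a mouse were treated as separate libraries. Summed T cell markers there were 523 CPM in day3CL mouse 2 and 1163 to 1557 CPM in the remaining mice. The mix of cell types thus differed within day3CL, and 0 calls does not show that the other nuclei were unchanged.

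In day7CL minus day0RT, which shares the day0RT mice, 669 of the 14429 genes rose and 458 fell. Of the 444 genes that rose in day3CL, 439 were positive there, 275 of them called. Of the 244 that fell, 243 were negative there, 164 of them called. Adipocytes of day3CL were then set directly against those of day7CL. Of the 14429 genes 67 were higher and 48 lower at day 3 (0.464% and 0.333%), and 7 of the 31 lipogenic genes were higher and 0 lower. *Scd1* had 412 CPM ± 79.9 (SD, n = 3) in day3CL and 170 CPM ± 33.2 (SD, n = 3) in day7CL (1.26, SE 0.13, adjusted p = 3.1e-11). *Acss2* (0.75), *Acaca* (0.63), *Acly* (0.57) and *Scd2* (0.52) were also higher at day 3, and *Pcx*, pyruvate carboxylase, and *Fads2*, a desaturase, were the other two. Thermogenic genes went the other way, with 6 of 38 lower at day 3 than at day 7 and 0 higher. *Dio2* had 29.7 CPM ± 3.48 (SD, n = 3) in day3CL against 49.2 CPM ± 15.0 (SD, n = 3) in day7CL (-0.74, SE 0.16, adjusted p = 0.0072). The proton channel gene *Otop1* (-0.55), the fatty acid handling genes *Slc27a2* (-0.93) and *Fabp3* (-0.71), *Gk* (-0.53), glycerol kinase, and *Esrrg* (-0.43), a nuclear receptor, were the others. Beige nuclei were 22.1%, 14.5% and 23.5% of adipocyte nuclei in day7CL, against 21%, 9.22% and 8.33% in day3CL, and the part of this share in the result was not tested.

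In day3C minus day0RT, which also shares the day0RT mice, 129 of the 14429 genes rose and 113 fell. Of the 444 genes that rose in day3CL, 436 were positive there, 82 of them called. Of the 244 that fell, 242 were negative there, 72 of them called. Set directly against 3 days of cold, 146 genes were higher and 64 lower in day3CL (1.01% and 0.444%). Of the 31 lipogenic genes 8 were higher, with *Acly* at 283 CPM ± 89.9 (SD, n = 3) in day3CL and 162 CPM ± 29.8 (SD, n = 3) in day3C (0.71, SE 0.14, adjusted p = 0.0011), and 1, *Elovl5*, was lower. *Scd3* (1.02), *Scd2* (0.93), *Acss2* (0.76), *Scd1* (0.74), *Acaca* (0.66), *Pnpla3* (0.50) and *Elovl6* (0.43) were the others. *Lrp3* was lower with CL, 63.1 CPM ± 10.8 (SD, n = 3) against 151 CPM ± 5.07 (SD, n = 3) (-1.21, SE 0.13, adjusted p = 5.8e-11), and so was *Adcy5* (-0.51, SE 0.11).

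**Figure D5:**
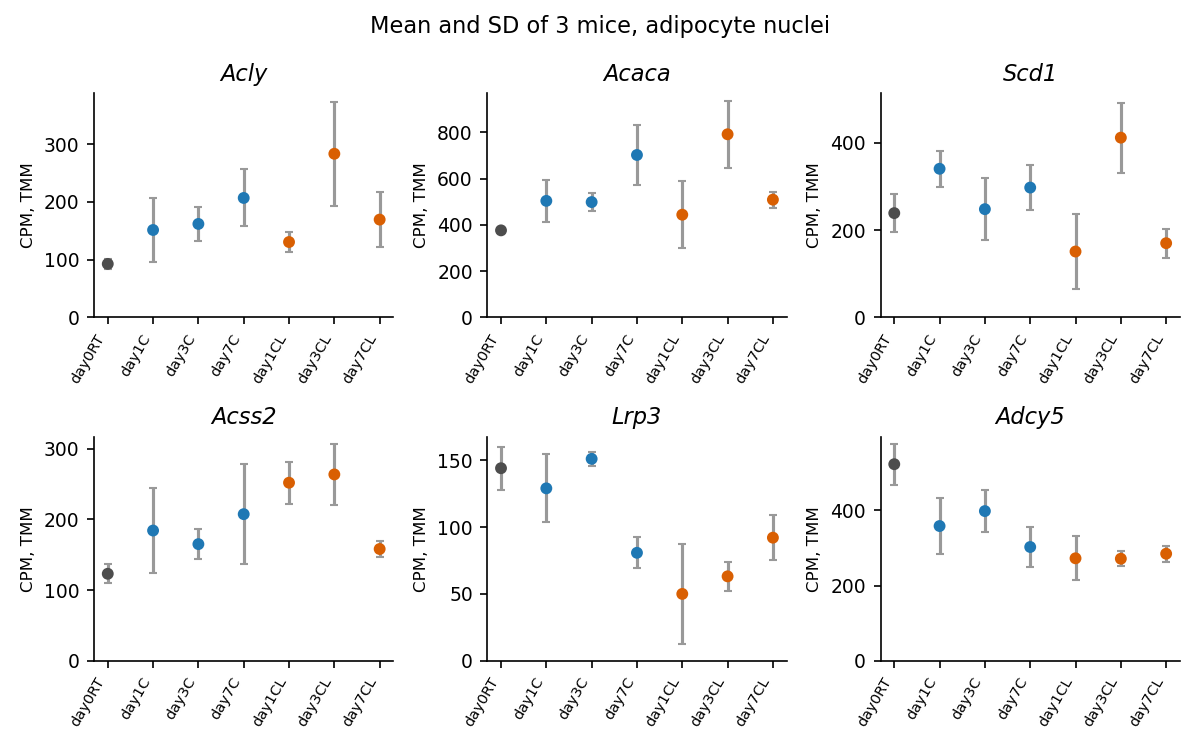
Mean accessibility (CPM, bars of SD, n = 3 mice) of *Acly*, *Acaca*, *Scd1*, *Acss2*, *Lrp3* and *Adcy5* in adipocytes of the 7 groups. *Scd1* is at 239 CPM in day0RT, 151 in day1CL, 412 in day3CL and 170 in day7CL, and *Adcy5* is at 523 CPM in day0RT and between 271 and 398 CPM in the other 6 groups.

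The share of adipocytes was compared by exact permutation tests, which with 3 against 3 mice cannot go below p = 0.10. Among all nuclei it was 10.9%, 10.9% and 17.4% in the day0RT mice and 16.1%, 75.1% and 24.0% in the day3CL mice, and the groups overlapped (difference 25.3 percentage points, exact permutation test, two-sided, p = 0.20). Without day3CL mouse 2 the difference was 6.97 points. Among nuclei other than lymphocytes it was 45.1%, 33.8% and 60.5% in day0RT and 66.1%, 87.4% and 70.3% in day3CL, so each treated mouse lay above each untreated one (difference 28.2 points, exact permutation test p = 0.10, the smallest possible). Beige nuclei were 12.2%, 7.69% and 7.72% of adipocyte nuclei in day0RT and 21%, 9.22% and 8.33% in day3CL, and only day3CL mouse 1 lay above the range of day0RT (difference 3.62 points, exact permutation test p = 0.50). Over nuclei of the Beige cluster alone, 11 of 7353 genes rose and 7 fell, among them *Scd1* (1.57, adjusted p = 0.0039) and *Acly* (1.25, adjusted p = 0.044). These sums rest on few nuclei, 24, 12 and 22 in the day0RT mice and 43, 86 and 34 in the day3CL mice.

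The label of the nuclei was checked against 10 adipocyte markers, whose summed CPM was 2945 to 3559 in day0RT and 2742 to 3013 in day3CL adipocytes. Of the 10, 1 rose (*Pparg*) and 5 fell (*Adipoq*, *Cidec*, *Plin1*, *Cebpa* and *Pnpla2*), against 3.08% and 1.69% of all genes. The falls were 1 each with DESeq2, with depth per nucleus as a covariate, with thinned nuclei and in nuclei of at least 2000 counts, and 1 to 4 when single mice were left out, with 1 without day0RT mouse 1 and 1 without day3CL mouse 2. Marker lists of 9 other cell types held 10 genes each, of which only 4 to 8 a list were tested. They had 1 call in all, where 3.08% of all genes rose and 1.69% fell, so the count says little on other cell types. It was *Myh11* of smooth muscle, with 45.2, 64.6 and 59.8 CPM in day0RT and 108, 105 and 93.7 CPM in day3CL (0.85, SE 0.16). In adipocyte nuclei their summed CPM in day0RT and day3CL ranged over 137 to 219 and 152 to 157 for B cells, 173 to 245 and 176 to 200 for T cells, 77.4 to 102 and 78.7 to 92.9 for myeloid cells, and 215 to 351 and 225 to 282 for progenitors. The ranges were 165 to 235 and 149 to 193 for endothelial cells, 597 to 745 and 724 to 770 for mural cells, 192 to 214 and 138 to 199 for skeletal muscle, 145 to 162 and 153 to 162 for epithelium, and 566 to 658 and 594 to 684 for Schwann cells. No marker with a peak was at 0 in all 6 mice, and the part of other cell types in the results was not tested.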

How the data were processed

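By the authors' methods and the submitters' processing notes, reads were aligned with Bowtie2 to mm10 and handled with SAMtools, and peaks were called with MACS2. Clusters were made with Signac, and doublets were removed before deposit. The authors' reporting summary gives the versions of these tools, which are not repeated here. The authors deposited counts as a binary matrix of 189598 peaks by 32552 nuclei, and metadata that name the mouse, group and cell type of each nucleus. Since 1 read and several give the same entry, widely open peaks are flattened, and a deeper nucleus fills more entries. The 4 sequenced libraries pool all mice, so samples were grouped by the deposited metadata.

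Here entries were summed per mouse over nuclei called Adipocyte or Beige (at least 10 nuclei), and over all other nuclei. Genes are the 17196 protein-coding GENCODE vM21 genes with a peak on the body or 2000 bases upstream, and 3.43% of peaks count for 2 or more genes. *Aldoa*, a symbol of 2 gene models, was left out of list counts. edgeR 4.0.16 (quasi-likelihood, TMM, filterByExpr with minimum count 10, total 15, proportion 0.7) in R 4.3.3 was fitted over all 7 groups (14 residual degrees of freedom), two-sided, adjusted over all features of a comparison. The p-values rest on the spread between mice, but edgeR draws each feature's spread toward a value shared over features. The median prior degrees of freedom were 71.1 for genes and 1101 for peaks, so a peak's p-value rests mostly on the shared value. DESeq2 1.42.0 was the other tool, and shares were compared by exact permutation tests over all arrangements of the mice (Python 3.11.15, numpy 2.4.6). The edgeR step was also run on counts simulated, with known changes, from means and spreads fitted to these data. The outcome of that run is not reported here. The alternatives were DESeq2, library size without TMM, no filter, promoter peaks only, white nuclei only, nuclei of at least 2000 counts, only the 2 groups, a replicate block, the lymphocyte or beige share as a covariate, and each mouse left out. Thinning to 1000 counts per nucleus, which left out nuclei of fewer counts, and the depth per nucleus as a covariate were added after the data were seen.

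The nuclei, the 17 gene lists, the marker lists and the tests were chosen with earlier results of these data known. Named were up to 4 called genes per list by adjusted p, lipogenic and thermogenic genes by role, and, with a mean of at least 20 counts and 1 direction in every treated mouse, the 12 genes and 10 peaks of largest change each way. *Pnpla2*, *Plin3*, *Grk5*, *Idh2*, *Akt2*, *Angptl4*, *Vegfa* and further peaks of named genes were named after their values were seen. The time course was used only where stated, and the lipidomics, imaging and motif scans by matrix were not used here. Some called genes are not reported here by name.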

Additional observations from a re-analysis of the deposited data

Results flagged for a closer look

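Differences between groups that passed a direct edgeR test (adjusted p below 0.05) in adipocytes are given on the log2 scale. In day3CL minus day7CL the differences were 1.26 for *Scd1*, 0.75 for *Acss2*, 0.63 for *Acaca*, 0.57 for *Acly*, 0.52 for *Scd2*, -0.43 for *Esrrg*, -0.53 for *Gk*, -0.55 for *Otop1*, -0.66 for *Ogdh*, -0.71 for *Fabp3*, -0.74 for *Dio2* and -0.93 for *Slc27a2*. In day3CL minus day3C they were 1.06 for *Safb*, 1.02 for *Scd3*, 0.93 for *Scd2*, 0.92 for *Hpgds*, 0.76 for *Acss2*, 0.74 for *Scd1*, 0.71 for *Acly*, 0.66 for *Acaca*, 0.65 for *Rp1*, 0.56 for *Myh11*, 0.50 for *Pnpla3*, 0.43 for *Elovl6*, 0.39 for *Lpin1*, -0.51 for *Adcy5* and -1.21 for *Lrp3*. The change from day0RT to day3CL differed between adipocytes and the other nuclei by 1.40 for *Acly*, 1.26 for *Acss2*, 1.14 for *Acaca*, 1.08 for *Rptor* and -1.21 for *Rapgef3*.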

How the results depend on the processing

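Of 101 named genes and peaks past the threshold, 29 passed it under every alternative that gave a value, and 5 of 1709 alternative values changed sign. DESeq2 called 119 genes higher and 60 lower, and 9 peaks higher and 7 lower. Its own filter gave no adjusted p to 8672 genes and 35241 peaks. Promoter peaks alone gave 74 genes higher and 36 lower. With the lymphocyte share as a covariate 229 genes were higher and 132 lower, and 424 peaks and 242 peaks. With thinned nuclei, added after the data were seen, 35 genes were higher and 25 lower, and 18 peaks and 3 peaks; with depth per nucleus as a covariate, also added, 129 genes and 332 peaks were lower. Peaks higher and lower numbered 698 and 109 without the filter, 669 and 261 in nuclei of at least 2000 counts, and 702 and 309 with only the 2 groups, and 356 were lower in white nuclei. Leaving out each mouse gave 157 to 427 genes higher, 80 to 242 lower, 262 to 969 peaks higher and 127 to 506 lower, with the fewest genes without day3CL mouse 2 and the fewest peaks higher without day0RT mouse 3. The share of beige nuclei differed by -0.44 to 5.88 percentage points.

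With promoter peaks only the sign changed for *Acaca* (-0.51), *Blcap* (0.13), *Rptor* (-0.041), *Lpin1* (-0.12), *Adcy3* (0.094) and *Esrrg* (0.45), with thinned nuclei for *Dio2* (-0.10) and *Gk* (-0.33), in nuclei of at least 2000 counts for *Mlxipl* (-0.017), and in white nuclei for *Srebf1* (-0.019) and *Slc27a2* (0.090). Leaving out single mice turned the sign for uncalled *Mlxipl* (-0.094 to 0.18), *Srebf1* (-0.066 to 0.083) and *Gk* (-0.041 to 0.23). The causes were not tested. Genes of few counts had wide errors, such as an SE of 0.47 for *Ucp1*. The labels share no replicate numbers, so the numbers in the mouse names were used. Same-numbered mice correlated at 0.046, 0.039 and 0.025 in their deviations. Differently numbered mice correlated at -0.062 to 0.020, so each same-numbered pair lay above each of these, though all values are small. The study speaks of 3 independent batches without saying which mice each held, so whether a number marks a batch is not known here. The replicate block gave 429 genes higher and 227 lower, and 957 and 550 peaks.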
